A study of Homo sapiens with 12 samples.

Results

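The genes of fatty acid oxidation and of the peroxisome were followed in HK-2 cells, an established, immortalised line of human kidney proximal tubule cells. The set held 41 genes of the 35238 in the deposited table. They were chosen by name for their place in the pathway, but with earlier results of these data known. By role, these were 6 transcriptional regulators, 3 acyl-CoA synthetases, 5 genes of the carnitine shuttle, 7 acyl-CoA dehydrogenases, 5 genes for the later steps of the mitochondrial cycle, 3 enzymes for unsaturated chains, 3 electron transfer flavoprotein genes, 6 genes of peroxisomal oxidation and 3 of peroxisome import. Cells received 10 nM of scrambled siRNA (SCR) or of one siRNA duplex against POLR2A (siB), the gene for the largest subunit of RNA polymerase II, and at the same time either 25 µM aristolochic acid I (AAI), a plant nephrotoxin that damages DNA, or its vehicle DMSO. RNA was taken after 24 hours, so that the 4 groups were SCR DMSO, SCR AAI, siB DMSO and siB AAI, with 3 libraries of polyA RNA in each. Every group carried an siRNA and the knockdown was transient. Group and replicate number came from the sample titles, since a treatment field in the labels reads DMSO for all 12 samples. The labels do not say whether replicates were separate cultures, so p-values measure only the spread between these libraries, which may be technical.

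Proximal tubule cells in the kidney run largely on fatty acids. A fatty acid is joined to coenzyme A, passed across the mitochondrial membranes on carnitine by the CPT enzymes and a carrier, and then shortened in repeated turns of oxidation whose electrons reach the respiratory chain through the electron transfer flavoproteins. Very long and branched chains are first shortened in peroxisomes, which import their enzymes by PEX proteins, and the receptor PPARα with its partner RXRα and its coactivator PGC-1α drives many of these genes in the tubule.

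The sequences shown are those next to the members whose levels moved most and the one promoter of the set that carried the motif searched. CPT1B and CPT1C each lie close behind another gene on the same strand. GENCODE release 44 (hg38) places CPT1C on chromosome 19 at chr19:49690898-49713731, plus strand, 322 bp past the end of ADM5. It places CPT1B on chromosome 22 at chr22:50568861-50578465, minus strand, 493 bp past the end of CHKB, and annotates a read-through gene, CHKB-CPT1B, that spans CPT1B and has an exon inside that stretch. The runs below lie between the genes of each pair, hold no exon annotated in GENCODE and are written 5′ to 3′ on the genes' strand. For CPT1C it is the 300 bases that end at the gene's start in GENCODE (chr19:49690598-49690897). A RefSeq start of CPT1C lies inside this run, directly after chr19:49690847. For CPT1B it is the 299 bases at the CHKB side (chr22:50578660-50578958). Capitals mark AGGTCA, the core motif of the PPAR, RXR and ERR receptors, or its reverse complement.
CPT1C: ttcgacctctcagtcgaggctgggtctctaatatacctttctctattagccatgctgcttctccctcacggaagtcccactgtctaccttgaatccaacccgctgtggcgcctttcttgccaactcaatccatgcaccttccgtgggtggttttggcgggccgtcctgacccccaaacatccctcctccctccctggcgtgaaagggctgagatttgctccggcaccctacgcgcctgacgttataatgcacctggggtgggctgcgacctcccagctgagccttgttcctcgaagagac
CPT1B: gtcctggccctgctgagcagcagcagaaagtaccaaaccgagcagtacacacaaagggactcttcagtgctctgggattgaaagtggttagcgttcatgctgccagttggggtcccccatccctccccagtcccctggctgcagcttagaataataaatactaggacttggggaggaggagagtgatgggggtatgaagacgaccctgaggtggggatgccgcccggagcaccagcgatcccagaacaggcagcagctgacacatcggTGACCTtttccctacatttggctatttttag
The CPT1B run held 1 such motif and the CPT1C run held 0. In RefSeq's promoter table (GRCh38.p14, 300 bases a promoter), 35 of the 41 genes had an entry, with 52 promoters between them. Searched on both strands, the core motif stood in 13.8% of all 35116 promoters and in 1 of the 52. The longer ERR form TCAAGGTCA, which contains the core motif, stood in 0.353% of all promoters and in 0 of the 52, and 2 copies of AGGTCA with 1 base between, the PPAR and RXR arrangement, in 0.0228% and in 0. The 1 promoter with a match was that of ACAD10, an acyl-CoA dehydrogenase gene, whose 30 bases around the site (chr12:111685974-111686003, plus strand) are these.
ACAD10: ggccgccgtcgcTGACCTgcggtttacgca
Median GC content was 66.7% in the 52 promoters and 58.7% in all. A match of these letters is a description of the sequence and not a binding site.

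Depth was 15844015 to 42805294 reads a library, and 3 reads, the upper limit that a count of 0 allows, corresponded to 0.0701 to 0.189 CPM (reads of a gene in a library scaled to 1000000). Such limits cover counting error only, since PCR copies were not removed by molecular identifiers. POLR2A, the targeted gene, stood at 258, 288 and 306 CPM in the SCR DMSO libraries, at 138, 143 and 139 in siB DMSO, at 673, 719 and 729 in SCR AAI and at 266, 220 and 210 in siB AAI. The siB libraries were lower than SCR in both media, and both were higher with AAI. Of 15 markers of the proximal tubule, 4 (SLC22A6, SLC22A8, AQP1 and FBP1) stayed under 1 CPM in every library, and the summed level of all 15 was 623 to 729 CPM in SCR DMSO, 396 to 654 in SCR AAI, 732 to 753 in siB DMSO and 405 to 552 in siB AAI. Summed levels of 6 distal nephron markers were 0.390 to 1.03 CPM across the DMSO libraries, 1.68 to 4.09 in SCR AAI and 9.92 to 13.0 in siB AAI. Summed levels of 5 fibroblast markers were 64.7 to 84.9 CPM in SCR DMSO and 41.1 to 48.8 in SCR AAI. In siB cells they were 63.5 to 67.8 CPM in DMSO and 45.6 to 54.1 in AAI. These sums were lower with AAI without overlap, as was COL1A1 of that list. LUM and DCN overlapped, and LUM had 30.9, 32.8 and 31.2 CPM in siB DMSO and 22.7, 40.4 and 39.2 in siB AAI. Summed levels of 4 immune markers, mostly CD68, were 60.6 to 98.4 CPM across the DMSO libraries. Across the AAI libraries they were 69.9 to 85.1 CPM. Those of 4 endothelial markers were 1.17 to 2.50 CPM in SCR DMSO, 1.55 to 1.61 in SCR AAI, 1.39 to 1.94 in siB DMSO and 3.75 to 5.62 in siB AAI, and the part of these lists in the results was not tested. SCR DMSO replicate 2 stood apart. Its levels of 10 of 40 member genes lay more than 2-fold (1 on the log2 scale) from the mean of the other SCR DMSO libraries, against 8 for SCR DMSO replicate 1 and 0 to 2 for each of the other 10 libraries, and members whose call or sign changed without it are named beside the comparison with AAI in SCR cells. In bulk RNA, fewer cells that express a gene and less RNA per cell cannot be told apart.

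The 41 genes took 0.176 to 0.232% of all reads. Levels between genes were compared per length, as CPM per kb of the canonical transcript. In SCR DMSO the genes of the matrix steps led. ECHS1, the enoyl-CoA hydratase, had 174 ± 66.8 CPM per kb (SD, n = 3), ACADVL, the very long chain dehydrogenase, 97.2 ± 25.1, and HADHA, the α subunit of the trifunctional protein, 66.2 ± 3.90. The SDs of ECHS1 and ACADVL were wide enough that neighbours in this order overlapped. At the other end stood CPT1A, the liver-type and usual kidney carnitine palmitoyltransferase, at 1.30 ± 0.549 CPM per kb (position 38 of 41), PPARGC1B at 0.402 ± 0.0805, CPT1C at 0.153 ± 0.0480 and ACADL at 0.0613 ± 0.0209. In SCR AAI the order at the top was kept by ECHS1, ACADVL and HADHA, whereas CPT1B moved from position 33 to 13, CPT1C from 40 to 30, and ECI1 from 6 to 18.

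The first question was how AAI changed these genes in SCR cells, which had no siRNA against POLR2A, and in siB cells. In SCR cells, 4 of 40 tested members passed limma's test at an adjusted p below 0.05. CPT1C and CPT1B rose, and ECI1 and ACAD9 fell. This was 2 of 40 higher, against 8.98% of all 14228 genes tested, and 2 of 40 lower, against 3.36%. Of the 40 tested members, 3 (CPT1C, CPT1B and ECI1) passed with a change of at least 2-fold, against 10.5% of all 14228 genes tested. In siB cells, 13 of 40 passed, 4 higher (CPT1C, CPT1B, HADH and ACAA2) against 30.4% of all 14928 genes and 9 lower (PPARGC1A, ECI1, RXRA, ACSL1, PEX19, ACAD9, ACAD10, DECR1 and HSD17B4) against 21.8%. There 4 of 40 members (CPT1C, CPT1B, PPARGC1A and ECI1) passed with a change of at least 2-fold, against 19.7% of all 14928 genes tested. A gene that passed under one siRNA and not under the other is not thereby shown to differ between them. With all 4 groups in the fit, 6 members passed in SCR cells, ACAD10 and PEX19 (both lower) in addition to the 4, against 26.6% of all genes, and 7 in siB cells, against 34.4%. In siB cells HADH, ACAA2, ACAD10, ACSL1, DECR1 and HSD17B4 were then no longer among them (adjusted p 0.0742 to 0.292).

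**Figure D1:**
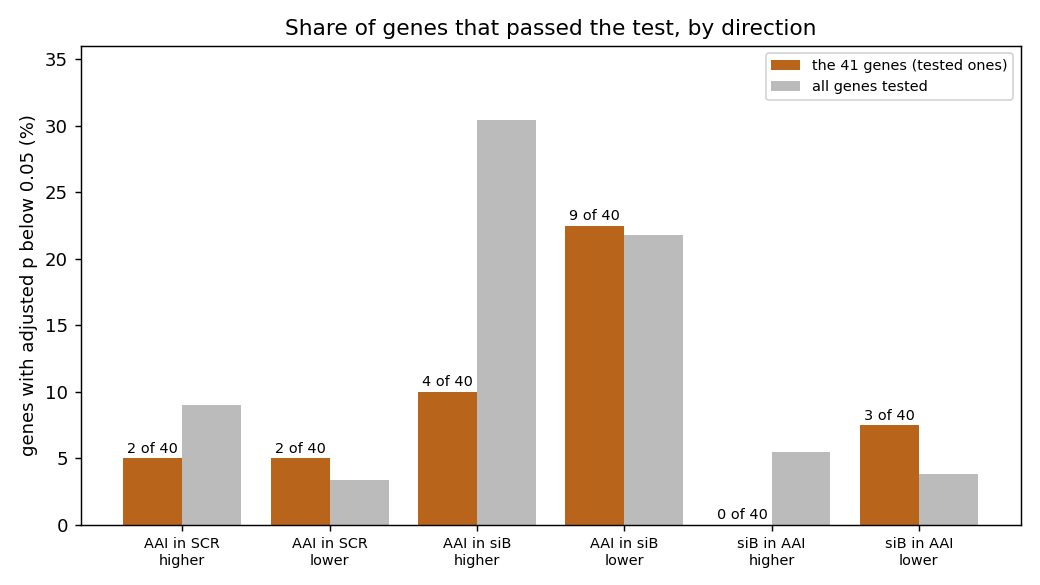
Percent of genes with an adjusted p below 0.05 (y axis) in 3 comparisons, higher and lower, for the tested members (brown, with counts) and for all genes tested (grey). With AAI the members' share of higher genes was 2 of 40 in SCR cells and 4 of 40 in siB cells, beside 8.98% and 30.4% of all genes.

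The median change of the tested members with AAI was 0.03 in SCR cells and -0.08 in siB cells on the log2(CPM + 1) scale, where the medians of all tested genes were 0.18 and 0.10. Scaling the libraries by median-ratio size factors shifted the medians of all genes by -0.20 and -0.12. The members' medians were then -0.18 and -0.20. The filter kept CPT1C through its AAI libraries alone, so a difference there was a condition of its being tested.

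In the carnitine shuttle, 2 of 5 genes rose with AAI under either siRNA and 0 fell. CPT1C, the neuronal form of carnitine palmitoyltransferase 1, which has little catalytic activity, had 0.324, 0.397 and 0.588 CPM in SCR DMSO (7, 17 and 16 reads) and 18.5, 17.3 and 15.7 CPM in SCR AAI (335, 381 and 400 reads). In siB DMSO it had 0.513, 0.451 and 0.279 CPM, and in siB AAI 18.9, 17.2 and 16.2 CPM. All 6 AAI libraries lay far above all 6 DMSO libraries. Mean CPM was 39.3-fold higher in SCR cells and 42.1-fold in siB cells, and the change on the log2(CPM + 1) scale, which understates it for so low a gene, was 3.66 ± 0.22 (SE; adjusted p = 7.82e-05) and 3.71 ± 0.17 (adjusted p = 6.85e-07).

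CPT1B, the muscle form of the same enzyme, had 11.5, 8.27 and 7.94 CPM in SCR DMSO and 69.0, 45.5 and 51.4 CPM in SCR AAI. With siB it had 5.34, 5.05 and 6.13 CPM in DMSO and 37.5, 32.8 and 30.4 CPM in AAI. Groups did not overlap with AAI under either siRNA. The change was 2.45 ± 0.27 (adjusted p = 0.000994) in SCR and 2.41 ± 0.15 (adjusted p = 3.83e-06) in siB, a ratio of mean CPM of 5.98 and 6.09. Defining markers of adipose tissue and muscle were low. CKM, a muscle marker, had 0.0855, 0 and 0 CPM in siB DMSO and 1.39, 0.785 and 0.482 in siB AAI. In SCR cells CKM had 0, 0.0701 and 0 CPM in DMSO and 0.166, 0.408 and 0.157 in AAI. ADIPOQ, LEP and MYH7 stayed under 1 CPM in all libraries, and the 4 genes of that list summed to 0.180 to 0.906 CPM in the SCR and siB DMSO and SCR AAI libraries and to 1.38 to 2.40 in siB AAI.

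CPT1A, which in most tissues sets the pace of fatty acid entry, had 3.51, 8.01 and 8.86 CPM in SCR DMSO and 2.93, 9.02 and 11.7 CPM in SCR AAI. Replicate 1 was the lowest in both, and the groups overlapped (log2 change 0.11 ± 0.50, adjusted p = 0.916). In siB cells it had 9.23, 11.2 and 9.48 CPM in DMSO and 3.47, 7.89 and 7.77 CPM in AAI, with no overlap, a change of -0.64 ± 0.26 and an adjusted p of 0.0683. It passed in 2 of 14 alternatives, with adjusted p from 0.0249 to 0.294 over all of them. CPT2, the inner membrane transferase, and SLC25A20, the acylcarnitine carrier, changed by -0.05 and -0.34 in SCR cells and by 0.34 and -0.37 in siB cells, and neither passed.

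**Figure D2:**
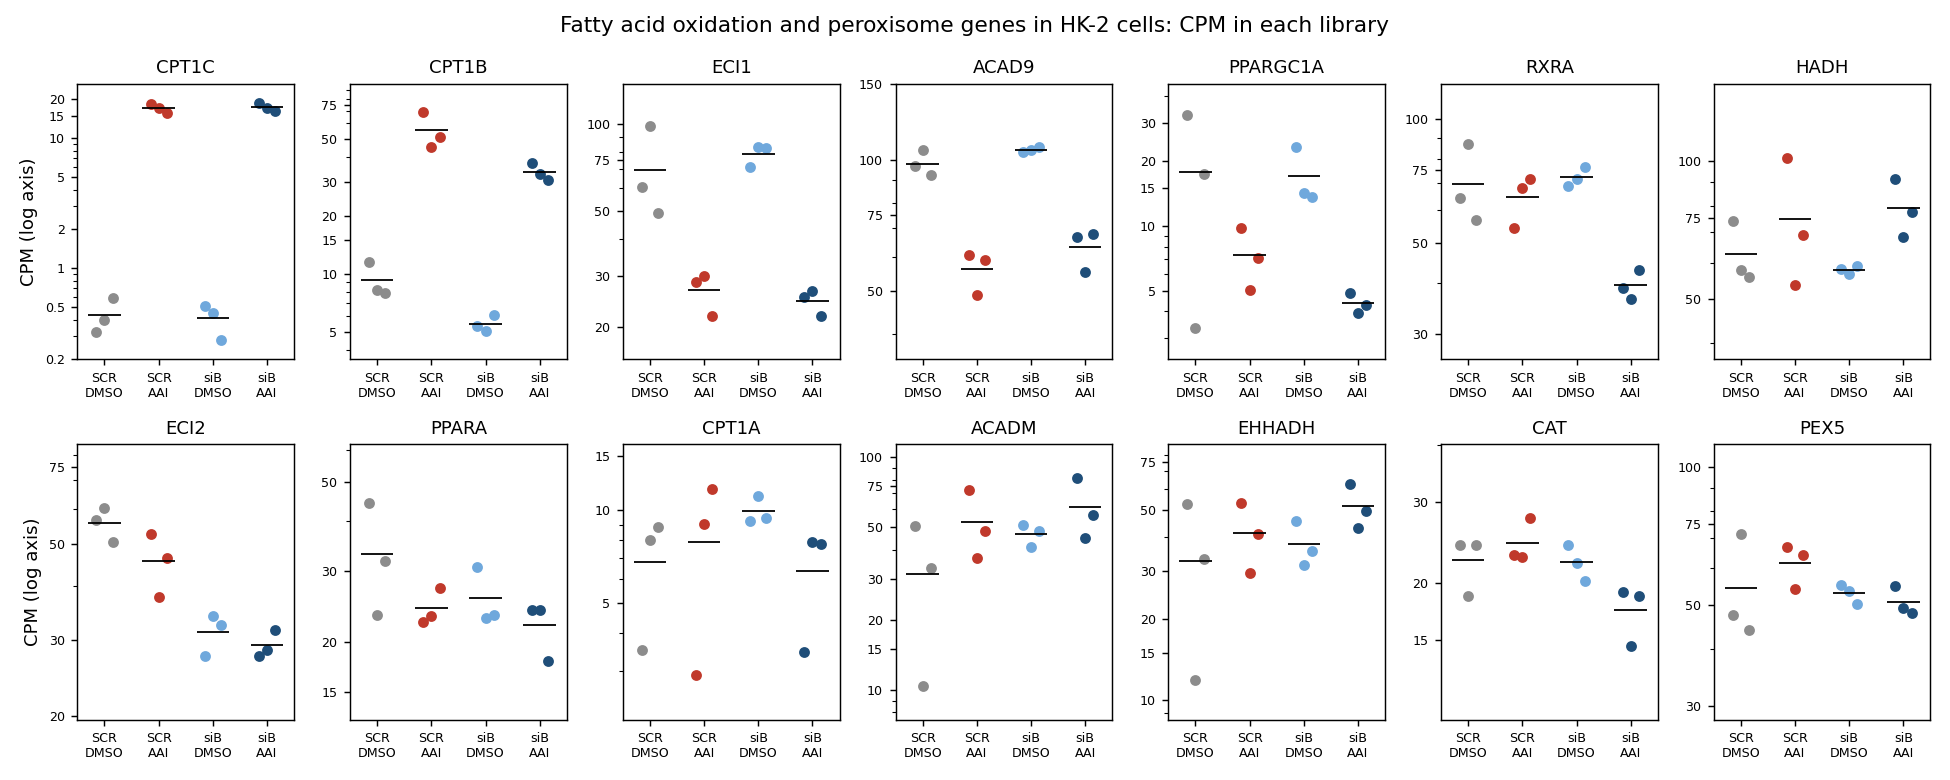
CPM (log axis, scaled per panel) of 14 members in each of the 12 libraries, with points in the order of replicates 1 to 3 and a line at each group's mean. CPT1C and CPT1B stood higher and ECI1 and ACAD9 lower in every AAI library than in every DMSO library, while SCR DMSO replicate 2 was the lowest library of its group for PPARGC1A, ACADM and EHHADH.

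The genes that precede CPT1B and CPT1C on the chromosome were looked at after these values were seen. CHKB, the choline kinase gene before CPT1B, had 15.6 to 19.6 CPM in SCR DMSO and 17.2 to 19.1 in SCR AAI, a change of 0.00 ± 0.23 (adjusted p = 0.994). The read-through gene CHKB-CPT1B had 4.58, 4.42 and 3.71 CPM in SCR DMSO and 28.1, 20.3 and 20.9 CPM in SCR AAI, a change of 2.19 ± 0.25 (adjusted p = 0.00128). With siB it went from 2.82, 5.14 and 3.46 to 15.5, 12.9 and 14.8 CPM (1.70 ± 0.20, adjusted p = 0.000135) and CHKB changed by -0.25 ± 0.16 (adjusted p = 0.208). Thus the gene that begins at CHKB and ends with CPT1B rose while CHKB itself did not pass. Reads inside CPT1B are shared by both annotations, and how the counting divided them was not given in the sources used here.

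ADM5, the adrenomedullin-family gene before CPT1C, had 1.94, 4.09 and 2.54 CPM in SCR DMSO and 26.6, 41.7 and 30.4 CPM in SCR AAI (3.15 ± 0.31, adjusted p = 0.000592). Under siB it had 2.18, 2.80 and 3.29 CPM in DMSO and 16.8, 22.2 and 23.9 CPM in AAI (2.55 ± 0.19, adjusted p = 1.02e-05). PRMT1, the arginine methyltransferase gene before ADM5 on the same strand, had 100 to 278 CPM in SCR DMSO and 130 to 191 in SCR AAI, with a change of -0.06 ± 0.37 (adjusted p = 0.942). ADM5 and CPT1C therefore stood higher with AAI together, and PRMT1 did not pass. An annotated gene on the other strand overlaps ADM5.

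**Figure D3:**
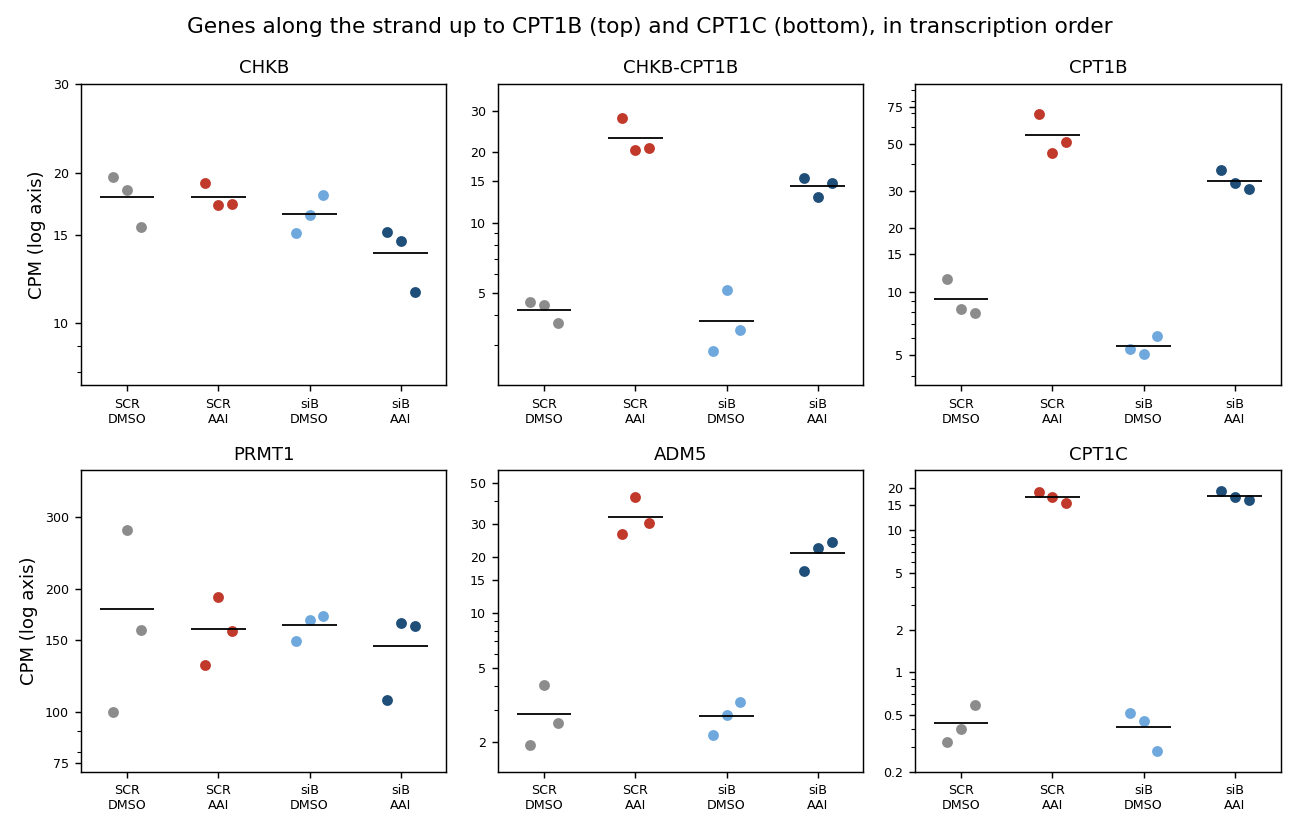
CPM (log axis, scaled per panel) in each library for CHKB, CHKB-CPT1B and CPT1B (top) and for PRMT1, ADM5 and CPT1C (bottom), with a line at each group's mean. The AAI libraries lie above the DMSO libraries for CHKB-CPT1B, CPT1B, ADM5 and CPT1C and overlap them for CHKB and PRMT1 under both siRNAs.

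Among the acyl-CoA dehydrogenases, which take the first electrons from the chain, 1 of 6 tested genes fell in SCR cells and 2 fell in siB cells. ACAD9, a dehydrogenase that also assembles respiratory complex I, had 96.9, 106 and 92.4 CPM in SCR DMSO and 60.6, 48.9 and 59.0 CPM in SCR AAI. Under siB it went from 105, 106 and 107 to 66.6, 55.4 and 67.7 CPM. The AAI libraries were below the DMSO libraries without overlap under each siRNA, by -0.80 ± 0.20 (adjusted p = 0.0385) and -0.74 ± 0.11 (adjusted p = 0.000576). In SCR cells the call was lost when any library but SCR DMSO replicate 2 was left out (adjusted p 0.0741 to 0.147) or with a filter on a mean CPM of 5 (0.0554). ACAD10 had a change of -0.51 in siB cells (adjusted p = 0.0111, and 0.0557 without siB DMSO replicate 3) and of -0.75 in SCR cells (adjusted p = 0.133).

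ACADM, the medium chain dehydrogenase, had 50.7, 10.4 and 33.6 CPM in SCR DMSO and 72.5, 37.0 and 48.4 CPM in SCR AAI. The 10.4 CPM of SCR DMSO replicate 2 was the lowest of all 12 libraries. With it the change was 0.92 ± 0.54 (adjusted p = 0.322) and without it 0.29 ± 0.30 (adjusted p = 0.533). The siB libraries had 51.1, 41.2 and 48.4 CPM in DMSO and 81.2, 45.0 and 56.5 CPM in AAI, which overlapped (0.33 ± 0.20, adjusted p = 0.182). ACADM overlaps RABGGTB on the same strand. The short chain, very long chain and ACAD11 genes changed by 0.54, -0.20 and 0.01 in SCR and by 0.18, 0.04 and 0.11 in siB cells, and none passed. ACADL, the long chain dehydrogenase, had 2 to 8 reads in every library (0.0935 to 0.442 CPM), too few to be tested.

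In the later steps of the mitochondrial cycle, 0 of 5 genes passed in SCR cells and 2 rose in siB cells. HADH, the hydroxyacyl-CoA dehydrogenase for shorter chains, had 58.0, 56.7 and 59.0 CPM in siB DMSO and 91.4, 68.2 and 77.5 CPM in siB AAI. The groups did not overlap and the change was 0.43 ± 0.13 (adjusted p = 0.0174). It was 0.31 (adjusted p = 0.0541) with median-ratio size factors, and adjusted p was 0.0622 without siB DMSO replicate 2 and 0.0518 without siB DMSO replicate 3. In SCR cells HADH had 74.1, 57.7 and 55.9 CPM in DMSO and 102, 53.7 and 69.1 CPM in AAI, with overlap (0.22 ± 0.28, adjusted p = 0.655). ACAA2, the mitochondrial thiolase, changed by 0.32 in siB cells (adjusted p = 0.0362), and by 0.19 with size factors (adjusted p = 0.17). Its call was lost without siB DMSO replicate 2 or 3 or siB AAI replicate 1 or 3 (adjusted p 0.0714 to 0.145) and without the trend (0.0643). HADHA and HADHB, the subunits of the trifunctional protein, and ECHS1 had changes between -0.46 and -0.04 in SCR cells and between -0.21 and -0.04 in siB cells, and none passed.

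The enzymes for unsaturated chains move or remove double bonds that the main cycle cannot pass. ECI1, the mitochondrial enoyl-CoA isomerase, had 60.4, 97.9 and 49.3 CPM in SCR DMSO and 28.7, 30.04 and 21.8 CPM in SCR AAI. Under siB it went from 70.7, 83.1 and 82.7 to 25.4, 26.7 and 21.8 CPM. Every AAI library was below every DMSO library, with a change of -1.29 ± 0.30 (adjusted p = 0.0295) in SCR and -1.64 ± 0.13 (adjusted p = 1.3e-05) in siB cells. In SCR cells the call was lost without any one of the SCR AAI libraries (adjusted p 0.0837 to 0.132), at a change of -1.37 to -1.15. ECI1 begins 815 bp past the end of RNPS1 and overlaps the antisense gene ECI1-AS1, and since the counting is not stated to use strand, reads of the pair cannot be told apart. Overlapping genes are annotated for many other members too, among them ACAD9, HADH, ECI2, DECR1, ACSL1, EHHADH, PEX5 and PPARGC1A on the other strand and ACAD10 and PEX19 on the same strand.

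ECI2, a second isomerase found in mitochondria and peroxisomes, had 56.8, 60.5 and 50.3 CPM in SCR DMSO and 52.6, 37.6 and 46.2 CPM in SCR AAI, a change of -0.30 ± 0.22 (adjusted p = 0.429). Its siB libraries had 27.4, 34.1 and 32.5 CPM in DMSO and 27.5, 28.3 and 31.7 CPM in AAI, a change of -0.10 ± 0.14 (adjusted p = 0.567). Its libraries thus separated by siRNA and overlapped between DMSO and AAI. DECR1, the dienoyl-CoA reductase, changed by -0.48 in siB cells (adjusted p = 0.0367) and by -0.75 in SCR cells (adjusted p = 0.195, and 0.0427 without SCR DMSO replicate 2). The siB call of DECR1 was lost without any one siB DMSO library or without siB AAI replicate 2 or 3 (adjusted p 0.0638 to 0.128) and without the filter (0.053). All 3 genes of this role had negative estimates under both siRNAs, of which 1 passed in SCR and 2 in siB cells.

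The electron transfer flavoprotein genes, ETFA and ETFB for the carrier and ETFDH for its dehydrogenase, did not pass with AAI. Changes were 0.10, 0.05 and 0.60 in SCR cells and 0.10, 0.00 and -0.13 in siB cells. Of the acyl-CoA synthetases, which activate fatty acids, ACSL1 fell in siB cells by 0.81 on the log2 scale (adjusted p = 0.0436). Its call was lost without any one siB DMSO library or without siB AAI replicate 2 (adjusted p 0.0517 to 0.0934), without the filter (0.079) and without the trend (0.0554). ACSL3 and ACSL4 changed by 0.35 and 0.07 in SCR cells (-0.20 and -0.53 without SCR DMSO replicate 2) and by 0.11 and 0.23 in siB cells, and neither passed.

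In the peroxisomal group, 0 of 6 genes passed in SCR cells and 1 fell in siB cells. That gene was HSD17B4, the second enzyme for branched and very long chains, with a change of -0.47 (adjusted p = 0.0147). The call was lost without siB DMSO replicate 3 or siB AAI replicate 2 or 3 (adjusted p 0.0508 to 0.0586). EHHADH, the enzyme with both hydratase and dehydrogenase activity for straight chains, had 53.0, 11.9 and 33.2 CPM in SCR DMSO and 53.3, 29.4 and 40.8 CPM in SCR AAI. Replicate 2 was the lowest of each group, and the change was 0.51 ± 0.51 (adjusted p = 0.557), or -0.07 ± 0.29 (adjusted p = 0.901) without SCR DMSO replicate 2. In siB cells it had 45.5, 31.5 and 35.5 CPM in DMSO and 62.4, 43.1 and 49.8 CPM in AAI, which overlapped, with a change of 0.45 ± 0.18 and an adjusted p of 0.0535.

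CAT, the catalase that clears the hydrogen peroxide of peroxisomal oxidation, had 24.3, 18.7 and 24.2 CPM in SCR DMSO and 23.1, 22.8 and 27.7 CPM in SCR AAI (0.13 ± 0.24, adjusted p = 0.763). In siB cells it had 24.2, 22.1 and 20.2 CPM in DMSO and 19.1, 14.6 and 18.7 CPM in AAI. These siB libraries did not overlap, and the change of -0.34 ± 0.15 had an adjusted p of 0.095. ACAA1, ACOX3 and ABCD3, the thiolase, an acyl-CoA oxidase and a transporter of the peroxisomal membrane, had changes between -0.19 and 0.52 in SCR cells and between -0.34 and 0.34 in siB cells. None of them passed.

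Of the import genes, PEX19, the chaperone of peroxisomal membrane proteins, was the only one that passed with AAI, and it did so in siB cells, with a change of -0.78 ± 0.12 (adjusted p = 0.000748). Its values were 64.4, 69.6 and 73.0 CPM in siB DMSO and 36.3, 38.4 and 45.4 CPM in siB AAI. In SCR cells they were 63.6, 64.0 and 64.9 CPM in DMSO and 41.1, 42.6 and 45.7 CPM in AAI, again without overlap, with a change of -0.56 ± 0.19 and an adjusted p of 0.107. PEX5, the receptor that carries enzymes into the peroxisome, had 47.5, 71.2 and 44.01 CPM in SCR DMSO, 66.7, 54.1 and 64.0 in SCR AAI, 55.3, 53.6 and 50.1 in siB DMSO and 54.8, 49.2 and 48.0 in siB AAI. Its groups overlapped in both comparisons (0.21 ± 0.25, adjusted p = 0.633, and -0.06 ± 0.11, adjusted p = 0.657). PEX13, part of the docking complex, changed by 0.49 and 0.27 and did not pass.

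Of the 6 regulators, 0 passed with AAI in SCR cells and 2 fell in siB cells. PPARGC1A, the gene of PGC-1α, had 23.2, 14.2 and 13.6 CPM in siB DMSO and 4.86, 3.92 and 4.29 CPM in siB AAI, without overlap. The change was -1.71 ± 0.22 (adjusted p = 0.000183), a 3.90-fold lower mean. In SCR cells it had 32.8, 3.36 and 17.4 CPM in DMSO and 9.77, 5.03 and 7.09 CPM in AAI. The groups overlapped because SCR DMSO replicate 2 lay below every SCR AAI library. With that library the change was -0.79 ± 0.68 (adjusted p = 0.499), and without it -1.63 ± 0.33 (adjusted p = 0.00498). Without SCR DMSO replicate 1, the library with the highest value, the change was -0.15 ± 0.57 (adjusted p = 0.879), so the SCR estimate rests on which of these libraries is kept.

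RXRA, the partner of the PPAR receptors on DNA, had 68.7, 71.4 and 76.6 CPM in siB DMSO and 38.8, 36.5 and 42.8 CPM in siB AAI, which did not overlap (-0.86 ± 0.11, adjusted p = 0.000257). In SCR cells it had 64.1, 87.0 and 56.7 CPM in DMSO and 54.4, 67.8 and 71.5 CPM in AAI, which did overlap (-0.09 ± 0.24, adjusted p = 0.848). PPARA, the receptor itself, had 44.2, 23.3 and 31.7 CPM in SCR DMSO, 22.4, 23.2 and 27.2 in SCR AAI, 30.8, 23.0 and 23.3 in siB DMSO and 24.0, 24.0 and 17.9 in siB AAI. It overlapped in both (-0.39 ± 0.28, adjusted p = 0.42, and -0.22 ± 0.17, adjusted p = 0.315). PPARD, PPARGC1B and ESRRA had changes of 0.37, -0.14 and 0.73 in SCR cells and of 0.24, -0.14 and -0.19 in siB cells, and none passed.

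**Figure D4:**
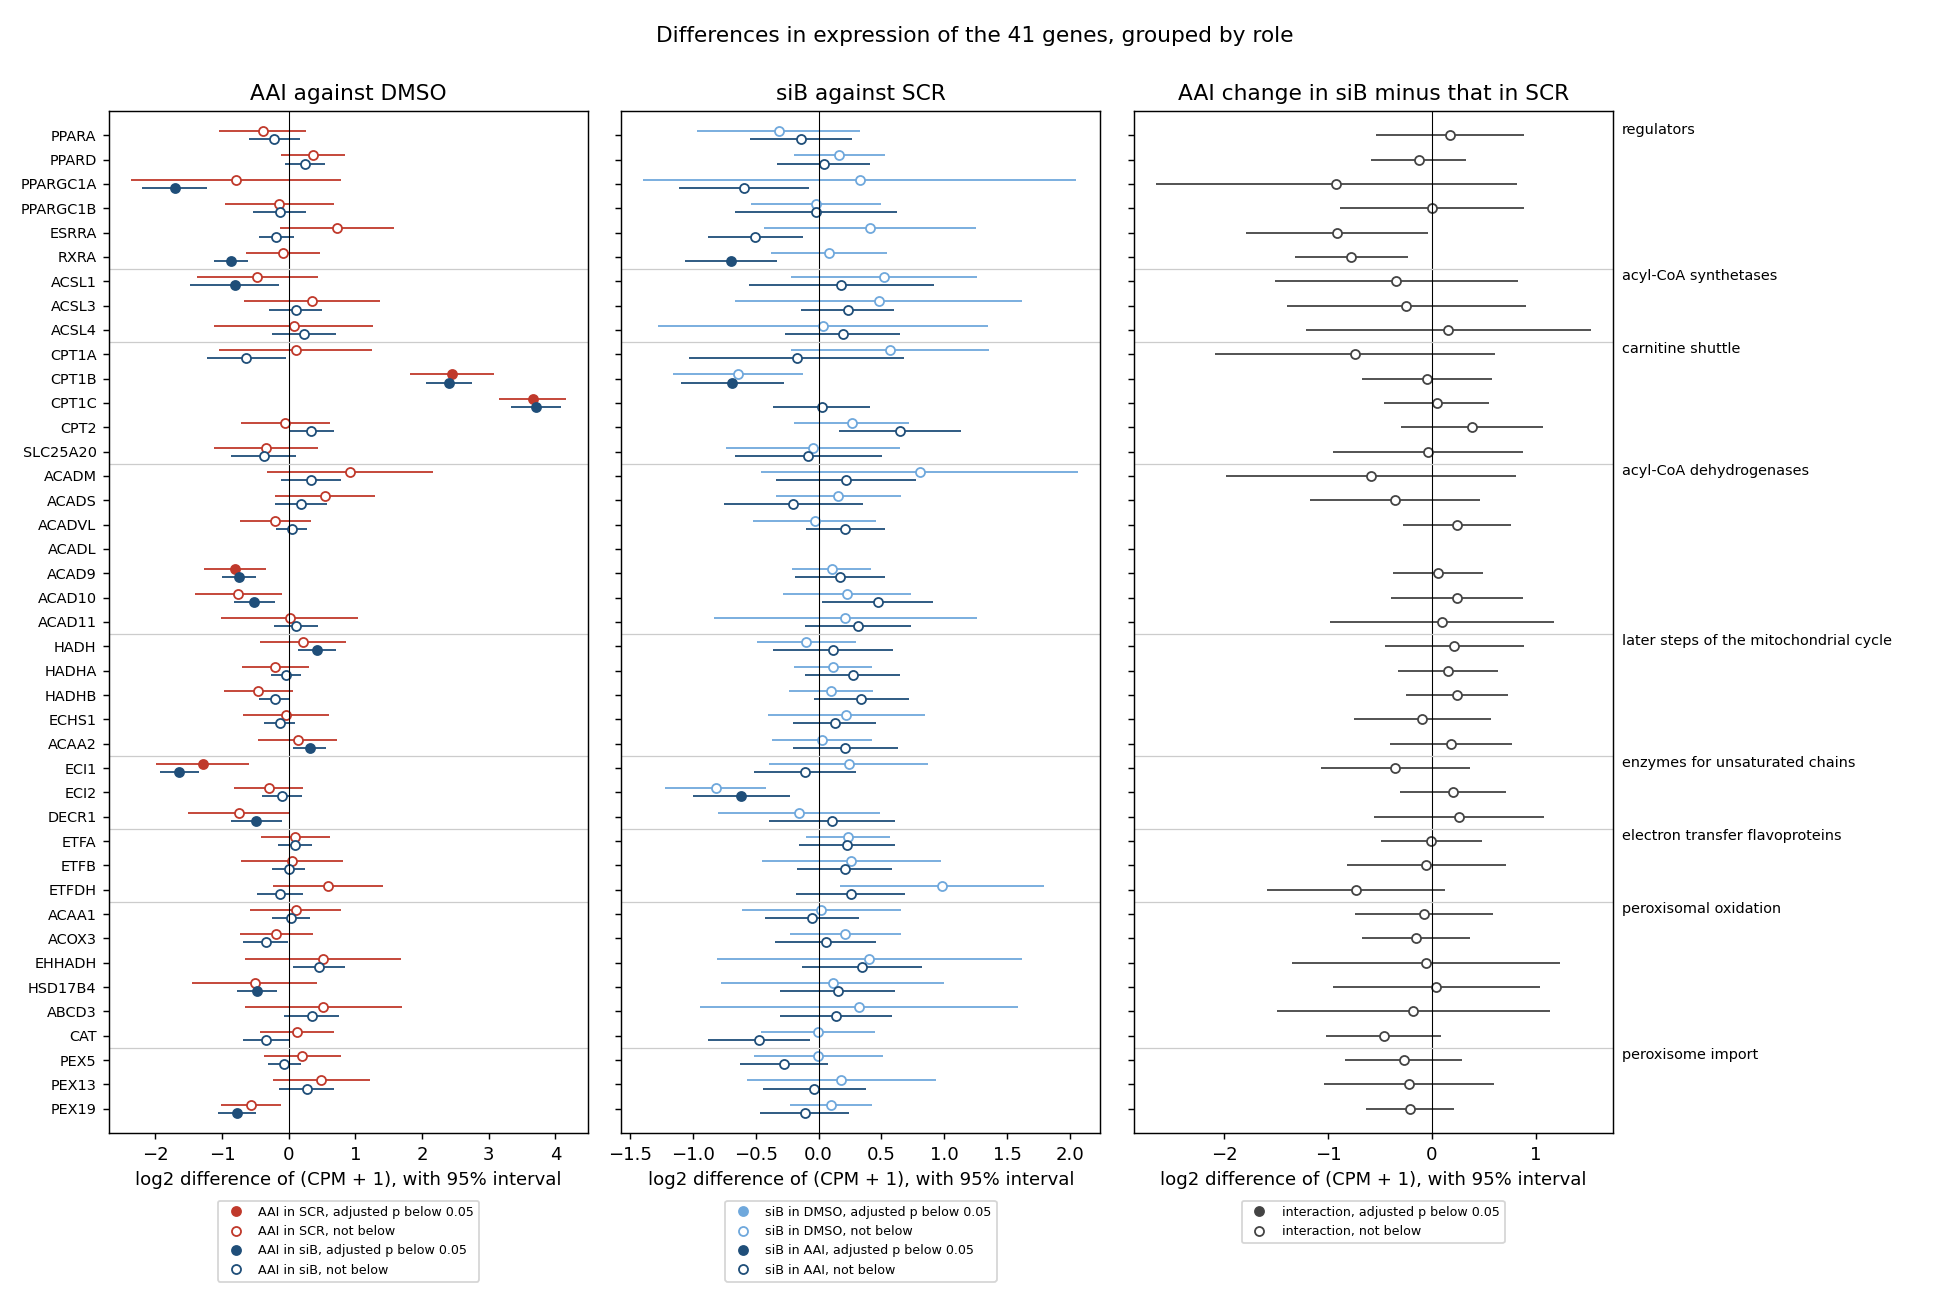
Log2 differences of (CPM + 1) with 95% intervals for the 41 genes, ordered by role, for AAI against DMSO, for siB against SCR and for the difference between the AAI changes of siB and SCR cells. Filled points had an adjusted p below 0.05, and the row of ACADL is empty because it was not tested. With AAI, CPT1C (3.66 and 3.71) and CPT1B (2.45 and 2.41) stand alone on the right, ECI1 (-1.29 and -1.64) and, in siB cells, PPARGC1A (-1.71) lie furthest to the left, and the intervals of SCR cells are wider than those of siB cells.

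Because SCR DMSO replicate 2 differed from its group, the AAI comparison in SCR cells was repeated without it. The count that passed went from 4 to 9 of 40 members, against 22.2% of all genes in the same fit. CPT1C, CPT1B, ECI1 and ACAD9 were still among them, and PPARGC1A (-1.63), ESRRA (1.11), HSD17B4 (-0.93), DECR1 (-0.94) and ACAD10 (-0.87) were added. The sign of the estimate changed for 7 members, none of which passed in either fit. These were ABCD3 (0.52 to -0.08), EHHADH (0.51 to -0.07), ACSL3 (0.35 to -0.20), ACSL4 (0.07 to -0.53), ACAD11 (0.01 to -0.46), RXRA (-0.09 to 0.09) and ECHS1 (-0.04 to 0.26). Among others, ETFDH (0.60 to 0.24), PEX5 (0.21 to 0.42) and PPARA (-0.39 to -0.61) moved by more than 1.5 times without passing. Without SCR DMSO replicate 1, 3 members passed (CPT1C, CPT1B and ECI1), and ACAA1 (0.11 to -0.10) and CPT1A (0.11 to -0.25) changed sign. With each one of the SCR AAI libraries left out, 2 members passed. The shares of all genes that passed without SCR DMSO replicate 1 or an SCR AAI library are not given here. Whether these lower counts are particular to the members was therefore not tested. From their correlation, same-numbered libraries of SCR DMSO and SCR AAI were taken as pairs, though the labels state no pairing. With the replicate as a block 5 members passed, DECR1 with an adjusted p of 0.0495 in addition to the 4, against 21.1% of all genes.

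The second question was what the lower POLR2A changed. In AAI, 3 of 40 members were lower in siB than in SCR cells, against 3.79% of all 14946 genes tested, and 0 were higher, against 5.49%. RXRA had 54.4, 67.8 and 71.5 CPM in SCR AAI and 38.8, 36.5 and 42.8 in siB AAI, with a difference of -0.69 ± 0.17 (adjusted p = 0.025). CPT1B had 69.0, 45.5 and 51.4 CPM against 37.5, 32.8 and 30.4 (-0.69 ± 0.19, adjusted p = 0.0397). ECI2 had 52.6, 37.6 and 46.2 CPM against 27.5, 28.3 and 31.7 (-0.61 ± 0.18, adjusted p = 0.0488). None of the 3 pairs of groups overlapped, and the siB means were 1.64-fold, 1.65-fold and 1.56-fold lower. CHKB-CPT1B (-0.64 ± 0.19) and ADM5 (-0.61 ± 0.21) had adjusted p of 0.0592 and 0.0882, and CPT1C differed by 0.02 ± 0.18 (adjusted p = 0.954).

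These 3 calls were close to the threshold. Without SCR AAI replicate 3, or without any one of the siB AAI libraries, 0 members passed. The shares of all genes in those fits are not given here. Adjusted p ran from 0.0548 to 0.107 for RXRA, from 0.0553 to 0.152 for CPT1B and from 0.0979 to 0.149 for ECI2 over the libraries whose loss ended the call, which also included SCR AAI replicate 2 for RXRA and SCR AAI replicate 1 for CPT1B and ECI2. CPT1B was also lost without the filter, without the trend and with all 4 groups in the fit (adjusted p 0.052 to 0.064), and ECI2 without the filter, without the trend, with a mean CPM filter of 5 and with voom (0.0515 to 0.0646). The replicate numbers were taken to pair SCR AAI and siB AAI from the correlation of same-numbered libraries, since the labels state no pairing. With them as a block, 8 members passed, against 28.9% of all genes. In that fit limma took the spread wholly from all genes, not from each gene's own libraries. Lower in siB were RXRA (adjusted p = 7.55e-05), CPT1B (0.000107), ECI2 (0.000737), ESRRA (0.00636), PPARGC1A (0.00884) and CAT (0.0176), and higher were CPT2 (0.65, adjusted p = 0.000495) and ACAD10 (0.47, adjusted p = 0.0221). Of the other members described by library, PPARA (-0.14), CPT1A (-0.17), ACADM (0.22), EHHADH (0.35) and PEX5 (-0.27) did not pass in either fit.

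In DMSO, 0 of 39 tested members differed between siB and SCR cells at an adjusted p below 0.05. Of all 13606 genes, 0 did (0%). An unadjusted p below 0.05 was found for 644 of these genes in limma, and for 616 with voom, where 0 passed. Both counts are under the share of 0.05 that no difference at all would give. POLR2A itself differed by -1.01 ± 0.13 there with an adjusted p of 0.505, so the test did not call the targeted gene either. With all 4 groups in the fit 12 genes passed (0.0882%), among them POLR2A (adjusted p = 0.0238) and no member. Among the 39 members, 3 had an unadjusted p below 0.05, beside the 644 of 13606 genes. This count was 8 without SCR DMSO replicate 2, beside 2754 of all genes. It was 1 without siB DMSO replicate 1 or 2, beside 323 and 196 of all genes. ECI2 had 56.8, 60.5 and 50.3 CPM in SCR DMSO and 27.4, 34.1 and 32.5 in siB DMSO (-0.82 ± 0.17, 95% interval -1.22 to -0.42, adjusted p = 0.935). CPT1B had 11.5, 8.27 and 7.94 CPM against 5.34, 5.05 and 6.13 (-0.64 ± 0.22, interval -1.16 to -0.12). Both were without overlap and lower in siB. The DMSO and AAI comparisons share no library, but same-numbered SCR DMSO and SCR AAI libraries deviated together, so they are not independent. ETFDH had 9.89, 3.67 and 7.87 CPM against 16.0, 13.8 and 12.8, higher in siB (0.98 ± 0.34, interval 0.17 to 1.79, and 0.62 without SCR DMSO replicate 2).

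The other key members in DMSO had wide intervals. PPARGC1A differed by 0.33 (interval -1.39 to 2.05), ACADM by 0.80 (-0.46 to 2.07), EHHADH by 0.40 (-0.81 to 1.62), CPT1A by 0.57 (-0.22 to 1.36), PPARA by -0.32 (-0.96 to 0.33), CAT by -0.01 (-0.46 to 0.45) and PEX5 by 0.00 (-0.51 to 0.51). With 3 libraries a group, differences of up to these bounds were not excluded. The bounds are no limits of detection, since POLR2A itself was not called in DMSO. Without SCR DMSO replicate 2 the differences of ACADM, EHHADH and PPARGC1A were 0.18, -0.17 and -0.51, and the sign changed for 12 of 39 members, none of which passed.

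Whether the response to AAI itself differed between siB and SCR cells was tested with the interaction term over all 4 groups. It passed for 0 of 40 members, against 1.61% of all 15325 genes tested. An unadjusted p below 0.05 was found for 2 of 40 members, a count that was not set against all genes. RXRA had a difference of -0.77 ± 0.25 between its AAI changes (95% interval -1.32 to -0.23, adjusted p = 0.175), and ESRRA one of -0.91 ± 0.40 (interval -1.79 to -0.04, adjusted p = 0.349). For the members that rose or fell under both siRNAs the interval of the difference held 0. It was 0.05 for CPT1C (-0.46 to 0.55), -0.05 for CPT1B (-0.68 to 0.58), -0.35 for ECI1 (-1.06 to 0.36) and 0.06 for ACAD9 (-0.37 to 0.50). For PPARGC1A it was -0.92 (-2.66 to 0.82). Without SCR DMSO replicate 2, 2 members passed, RXRA (-0.95, adjusted p = 0.0229) and ESRRA (-1.30, adjusted p = 0.0163), against 6.59% of all genes. In that fit PPARGC1A had a difference of -0.08 and ECI1 one of -0.63 (adjusted p = 0.128). Without SCR DMSO replicate 1 the difference of PPARGC1A was -1.56 (adjusted p = 0.325), and 0 members passed.

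ESRRA, the estrogen-related receptor that shares targets with PPARα, was looked at for this last result, after its values were seen. It had 27.5, 52.9 and 19.3 CPM in SCR DMSO, 48.7, 61.8 and 44.1 in SCR AAI, 37.5, 43.3 and 41.9 in siB DMSO and 36.2, 34.4 and 36.7 in siB AAI. Its highest SCR DMSO value came from replicate 2, and that library is the one that overlapped the AAI libraries.

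Beyond the set, 97 other genes of the pathway were counted, of which 83 to 86 passed the filter in a given comparison. With AAI in SCR cells 5 of 84 rose and 2 fell, against 8.98% and 3.36% of all genes. With AAI in siB cells 20 of 85 rose and 22 fell, against 30.4% and 21.8%. For siB against SCR 0 of 84 were higher and 4 lower in AAI, against 5.49% and 3.79%, and 0 of 83 passed in DMSO, and the interaction passed for 0 of 86. The genes named are those with the greatest changes that passed.

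SLC27A3, a fatty acid transport protein with acyl-CoA synthetase activity, had 6.52, 2.76 and 4.63 CPM in SCR DMSO and 45.0, 42.2 and 36.6 in SCR AAI (2.96 ± 0.31, adjusted p = 0.00082). Under siB it went from 4.92, 4.60 and 4.46 to 22.7, 22.4 and 18.9 CPM (1.98 ± 0.15, adjusted p = 1.16e-05). It was also lower in siB than in SCR cells under AAI, by -0.92 ± 0.17 (adjusted p = 0.00804), with no overlap. Its annotation overlaps INTS3. UCP3, a mitochondrial carrier regulated by PPARs, had 1.39, 0.654 and 1.47 CPM in SCR DMSO and 13.5, 7.93 and 12.6 in SCR AAI (2.50 ± 0.29, adjusted p = 0.00125), and in siB cells it changed by 2.52 ± 0.22 (adjusted p = 2.39e-05). ANGPTL4, a PPAR target that inhibits lipoprotein lipase, had 0.693, 17.05 and 11.9 CPM in SCR DMSO and 44.1, 162 and 108 in SCR AAI. Its change was 3.66 ± 0.88 (adjusted p = 0.032, 0.0592 to 0.127 without SCR DMSO replicate 3 or any one SCR AAI library, and 0.0531 and 0.0646 with a mean CPM filter of 5 and with none) in SCR and 2.20 ± 0.28 (adjusted p = 0.000211) in siB cells. In SCR cells UCP3 and ANGPTL4 each had a DMSO library below 1 CPM, so both met the filter there only with their AAI libraries.

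UCP2, a second carrier of this family, fell from 198, 301 and 235 CPM in SCR DMSO to 33.96, 57.3 and 56.3 in SCR AAI (-2.31 ± 0.28, adjusted p = 0.00153) and by -1.96 ± 0.16 (adjusted p = 1.37e-05) in siB cells. PEX10, a ubiquitin ligase of the import machinery, fell from 26.1, 35.8 and 29.5 CPM to 9.33, 11.8 and 9.55 in SCR cells (-1.48 ± 0.25, adjusted p = 0.00725, and 0.0502 without SCR AAI replicate 3) and from 42.9, 39.3 and 46.0 to 6.06, 8.12 and 7.07 in siB cells (-2.44 ± 0.15, adjusted p = 3.67e-06). PECR, a peroxisomal enoyl-CoA reductase, fell by 1.10 on the log2 scale in siB cells (adjusted p = 0.000841). PEX10 overlaps RER1, and PECR overlaps MREG and TMEM169. In AAI, RXRB (-0.65 ± 0.17, adjusted p = 0.0313) and PLIN2 (-0.62 ± 0.17, adjusted p = 0.0421), a second RXR receptor and a lipid droplet coat protein, were lower in siB cells. RXRB overlaps SLC39A7. Both calls were lost without SCR AAI replicate 3 or siB AAI replicate 2 or 3, and RXRB's also without SCR AAI replicate 2 and PLIN2's without siB AAI replicate 1 (adjusted p 0.0585 to 0.155 for RXRB and 0.0923 to 0.159 for PLIN2), and with all 4 groups in the fit (0.114 and 0.115). PLIN2 also did not pass with a mean CPM filter of 5, with no filter or without the trend (0.0566 to 0.0677).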

How the data were processed

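HK-2 cells were sequenced as polyA RNA in 4 groups of 3 libraries. The authors, by their methods, mapped read pairs to hg38 and summed them per gene of a UCSC annotation on a web platform. The aligner and strand setting are not given in the sources used here. The authors deposited 1 table in log10 units, log10(CPM + 1). CPM was recovered as 10 to that value minus 1, and whole reads from its steps (100% of values within 0.1 read). limma 3.58.1 in R 4.3.3 (linear fit, empirical Bayes with a trend) was applied to log2(CPM + 1), one pair of groups at a time. Genes needed 1 CPM or more in 3 or more of the libraries in the fit, and adjustment was by Benjamini-Hochberg over all of them. The interaction used all 4 groups. Errors are moderated SEs. The members and lists were chosen with earlier results of these data known. Values per library were given for 7 well-known members and, per comparison, for up to 3 members each way with the greatest change that passed. Up to 3 other pathway genes each way followed the same rule. Coordinates and transcript lengths are from GENCODE 44, promoters from RefSeq. Same-numbered libraries deviated together, over 14465 genes, for SCR DMSO with SCR AAI (r 0.355 to 0.487) and SCR AAI with siB AAI (0.301 to 0.635), so there the numbers were taken to pair libraries. They were not for siB DMSO with siB AAI (0.0251 to 0.222) or SCR DMSO with siB DMSO (-0.199 to 0.738). The alternatives were another pseudocount (0.1), 2 other filters, size factors, a joint fit, the replicate block, voom on recovered reads, no trend, and each library left out. The fit was tested on simulated libraries that were independent and had the same spread setting for every gene. That test therefore does not measure what could be detected in these data. One marker gene of the list fixed for the proximal tubule is not reported here.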

Additional observations from a re-analysis of the deposited data

How the results depend on the processing

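With AAI in SCR cells the count of members that passed was 4, between 2 and 9 with 1 library left out (9 without SCR DMSO replicate 2, 2 without any one SCR AAI library) and between 3 and 6 under the other alternatives. With AAI in siB cells it was 13, 7 with all 4 groups in the fit, 7 to 16 with 1 library left out and 11 to 16 otherwise. For siB in AAI it was 3, 1 without a filter, 1 without the trend, 8 with the replicate block, 0 to 2 with 1 library left out and 2 to 3 otherwise. In the block fit of that comparison limma took the spread wholly from all genes (its prior degrees of freedom were infinite), since 2 residual degrees of freedom were left. For siB in DMSO it was 0 under every alternative, and for the interaction 0, and 0 to 2 with 1 library left out. Shares of all genes were given above only for the main fits and for some fits that were joint, blocked or without SCR DMSO replicate 2. The other counts are not set against all genes, so they show nothing particular to the members. The median change of members with AAI in siB cells moved from -0.08 to -0.20 with size factors. The cause of these shifts was not tested, beyond the fewer libraries in a fit. Where the numbers were not taken to pair libraries, the block gave 16 members for AAI in siB cells, where replicates 1 and 3 correlated best with their own number and replicate 2 did not, and 0 for siB in DMSO, where replicates 1 and 2 did and replicate 3 did not. Apart from the calls named, the replicate block changed no call of a member in the comparisons taken as paired. No named gene that passed changed direction. CPT1C and CPT1B passed in all 14 alternatives with AAI under both siRNAs. These fits reuse the same libraries, and the main filter kept CPT1C through its AAI libraries alone. With 3 libraries a group, wide intervals limit what could be seen, above all where SCR DMSO entered.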
